A study of Mus musculus with 7 samples.

Results

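CDK inhibitors are the proteins that hold the cyclin-dependent kinases (CDKs) of the cell cycle in check, and the 7 mouse genes that encode them, Cdkn2a, Cdkn2b, Cdkn2c, Cdkn2d, Cdkn1a, Cdkn1b and Cdkn1c, were followed in RNA of alveolar macrophages. They were taken by name from 27179 genes in the count table, and all 7 passed the filter on low counts that left 14436 genes for testing. Alveolar macrophages are the resident phagocytes of the lung airspaces. They were sorted from C57BL/6-Ly5.1 recipients that had been lethally irradiated and rebuilt with mixed bone marrow. For the 4 wild type libraries the graft was 90% wild type Ly5.2 and 10% wild type Ly5.1 marrow, and for the 3 Suz12 cKO libraries the 90% share was Ly5.2 marrow with a conditional knockout of Suz12. Both groups thus share irradiation, transplantation and a 10% wild type competitor graft, and the series text calls the libraries biological replicates. The sources used here do not give the Cre driver, the deleted exons, the age of the mice or whether competitor cells were gated out.

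The INK4 members, Cdkn2a to Cdkn2d, encode small proteins that bind the kinases CDK4 and CDK6 and keep D-type cyclins from activating them. The CIP/KIP members, Cdkn1a, Cdkn1b and Cdkn1c, encode p21, p27 and p57, which bind complete cyclin-CDK complexes, above all those of CDK2. When these kinases are held back, the retinoblastoma protein stays bound to E2F factors and genes of DNA synthesis stay quiet. Cdkn2a is a special case, because from a second start it also encodes ARF, which binds MDM2 and so stabilises p53, the activator of Cdkn1a. Suz12 is a core subunit of polycomb repressive complex 2 (PRC2), which marks genes for silencing by methylating histone H3, and the Cdkn2a-Cdkn2b locus is a classical PRC2 target in many cell types.

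Start regions of the members on which the results turn are shown because 2 of these genes adjoin each other and changed together, and because Cdkn1a is a textbook target of p53. RefSeq start regions (GRCm38.p6, the assembly behind the mm10 build of the counts) matched 6 of the 7 genes, with 9 starts; the entry missing was Cdkn1c. Each sequence is the 250 bases before the start, 5′ to 3′ on the strand of the gene. Capitals mark an E2F-type motif in the upstream Cdkn2a window and a p53 element in the Cdkn1a window.
Cdkn2a, upstream start (chr4:89294620-89294869, minus strand): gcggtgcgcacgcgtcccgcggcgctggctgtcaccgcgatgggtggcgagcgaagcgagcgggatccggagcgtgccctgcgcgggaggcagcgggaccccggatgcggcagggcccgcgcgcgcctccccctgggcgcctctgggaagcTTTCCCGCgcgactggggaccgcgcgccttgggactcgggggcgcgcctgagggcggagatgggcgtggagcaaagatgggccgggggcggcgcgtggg
Cdkn2a, downstream start (chr4:89282193-89282442, minus strand): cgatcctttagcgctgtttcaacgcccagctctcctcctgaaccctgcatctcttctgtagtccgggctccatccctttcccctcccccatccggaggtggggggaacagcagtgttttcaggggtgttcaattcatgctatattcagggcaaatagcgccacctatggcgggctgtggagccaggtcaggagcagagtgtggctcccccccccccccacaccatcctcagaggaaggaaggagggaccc
Cdkn2b (chr4:89311033-89311282, minus strand): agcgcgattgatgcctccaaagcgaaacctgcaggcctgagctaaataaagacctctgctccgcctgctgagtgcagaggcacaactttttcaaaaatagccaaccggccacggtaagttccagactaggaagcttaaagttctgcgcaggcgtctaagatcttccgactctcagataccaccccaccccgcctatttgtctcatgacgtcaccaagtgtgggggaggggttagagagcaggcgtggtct
Cdkn1a, upstream start (chr17:29090729-29090978, plus strand): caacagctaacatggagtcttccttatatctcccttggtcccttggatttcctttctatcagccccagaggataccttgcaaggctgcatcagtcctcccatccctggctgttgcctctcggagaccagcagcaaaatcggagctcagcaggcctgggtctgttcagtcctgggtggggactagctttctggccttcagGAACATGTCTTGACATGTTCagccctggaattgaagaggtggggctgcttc

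The upstream Cdkn2a window held 40 CpG dinucleotides, a number reached by 1.31% of 32841 such windows. It also held the E2F-type motif TTTCCCGC, which began 99 bases before the start. The motif was searched on both strands as TTTCCCGC, TTTCGCGC, TTTGCCGC or TTTGGCGC, and 1.86% of all windows held one of these forms. The downstream Cdkn2a window had 7 CpG and the Cdkn2b window 12, against a median of 6, and neither held the motif. The upstream Cdkn1a window had 2 CpG and held 1 p53 element, which began 51 bases before the start. This element is a pair of adjoining p53 half-sites with at most 1 mismatch, and 0.0761% of all windows held one. None of the other 8 windows of these genes did. The downstream Cdkn1a window, with 19 CpG, held neither motif. These matches describe the letters in the windows only.

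Suz12 RNA measured 22.1, 23.6 and 15.1 counts per 1000000 after scaling (CPM) in Suz12 cKO replicates 1 to 3. It measured 56.5, 56.3, 73.9 and 68.9 CPM in wild type replicates 1 to 4, without overlap (log2 fold change -1.65, SE 0.18, edgeR adjusted p = 0.00134). Libraries held between 48104653 and 79281431 counts, which is more than the read yield stated in the series text, for a reason the sources used here do not give. Summed markers of alveolar macrophages lay between 71961 and 76799 CPM in Suz12 cKO and between 62326 and 77571 CPM in wild type, with Lyz2 the most abundant, and of these 22 markers 7 were called higher and 2 lower. For this and the marker counts below, 6.28% of all tested genes were called higher and 4.02% lower. Libraries differed in RNA of other cells: haemoglobin RNA reached 192 CPM in Suz12 cKO replicate 1, 155 CPM in Suz12 cKO replicate 2 and 56.6 CPM in wild type replicate 2, with a maximum of 5.17 CPM elsewhere. The surfactant gene Sftpc followed these libraries, with 4.53, 9.08 and 10.6 CPM, and did not exceed 0.0412 CPM elsewhere. Neutrophil markers, of which 4 of 6 tested were called higher, summed to between 186 and 253 CPM in Suz12 cKO and between 113 and 139 CPM in wild type, with Ly6g and Camp at 0 in every library. Monocyte and interstitial macrophage markers, of which 3 of 14 were called higher, summed to between 258 and 446 CPM against between 111 and 333 CPM. The part of such cells in the results below was not tested, and fewer cells of a type cannot be told apart from less RNA per cell in bulk samples.

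**Figure D1:**
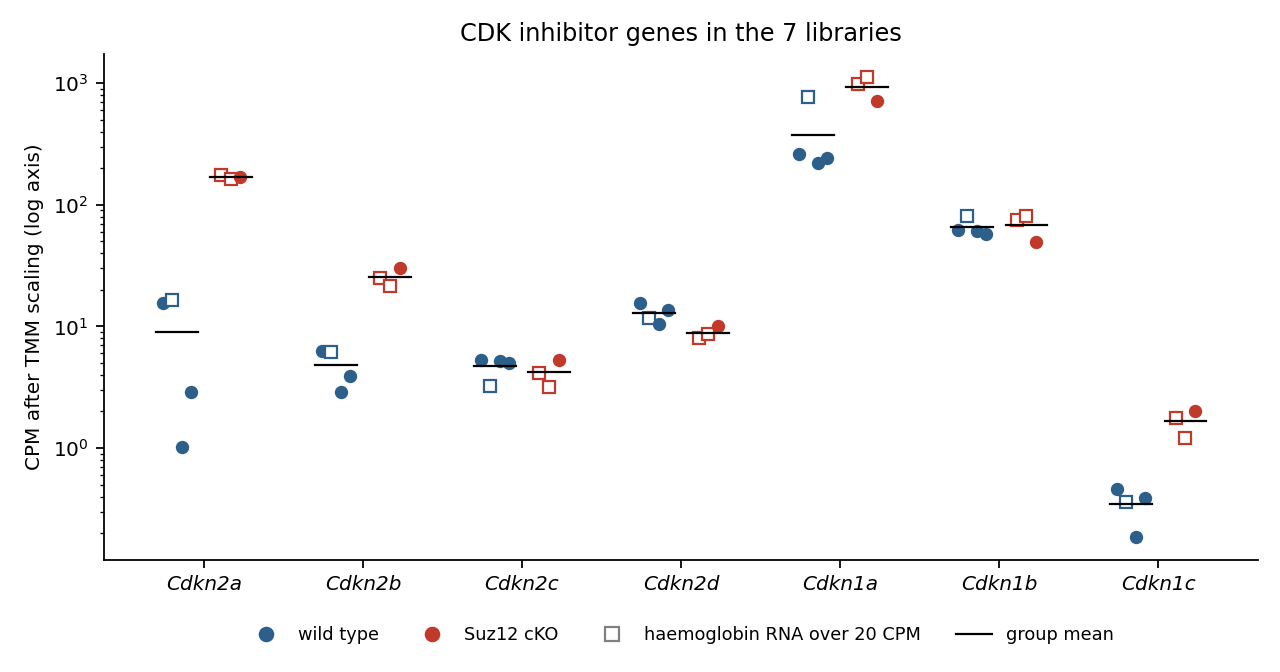
Level of each CDK inhibitor gene (CPM after scaling, log axis) in the 4 wild type (blue) and 3 Suz12 cKO (red) libraries, with black bars for group means and open squares for libraries with over 20 CPM of haemoglobin RNA. Cdkn2a, Cdkn2b and Cdkn1c lie higher in every Suz12 cKO library than in any wild type library, and Cdkn1a of wild type replicate 2 (767 CPM) lies among the Suz12 cKO values.

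Of the 7 CDK inhibitor genes, the neighbours Cdkn2a and Cdkn2b rose in Suz12 cKO and none fell (edgeR quasi-likelihood test, adjusted p under 0.05). Of all tested genes, 6.28% were called higher and 4.02% lower. At an unadjusted p under 0.05, 4 members were higher and 1 lower, against 1906 and 1625 of the 14436 tested genes. DESeq2 called 3 members higher and 0 lower, against 1457 and 863 over all genes. Ranges of the 2 genotypes did not overlap for 4 members, 3 of them higher and 1 lower, against 25.5% of all tested genes in either direction. The median log2 fold change was 1.33 over the 7 members and 0.00 over all tested genes.

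**Figure D2:**
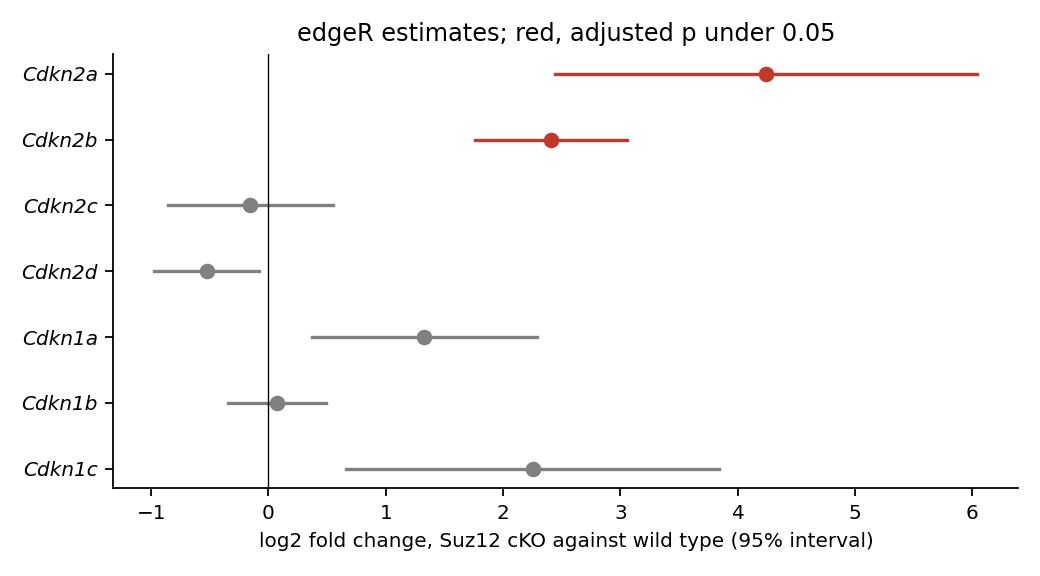
Log2 fold change of each gene in Suz12 cKO against wild type with its 95% interval, red where the adjusted p was under 0.05. Cdkn2a (4.24) and Cdkn2b (2.41) are called; the intervals of Cdkn1a and Cdkn1c lie above 0 without passing the threshold, and those of Cdkn2c and Cdkn1b span 0.

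Cdkn2a (Entrez 12578; chromosome 4, 89274473 to 89294619) encodes p16Ink4a and ARF. Suz12 cKO replicates 1 to 3 had 177, 163 and 171 CPM of it, wild type replicates 1 to 4 had 15.5, 16.4, 1.02 and 2.87 CPM, and all values below follow the same order of replicates. The Suz12 cKO libraries lay close together, the highest 1.09 times the lowest, and far above wild type, whose libraries spread over a 16.0-fold range with replicates 1 and 2 high and replicates 3 and 4 low. The rise was 19.0-fold (95% interval 5.45 to 66.0; log2 fold change 4.24, SE 0.79, adjusted p = 0.0118), and the gene was higher in 3 of 3 libraries. Haemoglobin RNA did not follow the spread within wild type, being high in replicate 2 only. Within the 3 libraries high in haemoglobin RNA the log2 fold change was 3.38 and within the 4 low ones 4.69, given as values because 1 genotype has 1 library in each. Wild type replicates 1 to 4 stood at 9.08%, 9.62%, 0.600% and 1.68% of the Suz12 cKO mean, so the wild type mean, and with it the size of the fold, rests mostly on replicates 1 and 2. Suz12 was lower in these 2 libraries (56.5 and 56.3 CPM) than in replicates 3 and 4 (73.9 and 68.9 CPM). Whether they hold some RNA or cells of the other genotype was not tested.

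Counts of Cdkn2a cannot say which of its products rose. In the GENCODE M21 annotation of GRCm38 its 2 transcripts start 12.5 kb apart, with first exons of 320 bases (upstream, ARF) and 207 bases (downstream, p16Ink4a), and share 575 of 1172 exon bases (49.1%). The table gives 1 count per gene. The sources used here do not state the strand setting, so antisense RNA across the locus cannot be told apart either.

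Cdkn2b (Entrez 12579; chromosome 4, 89306289 to 89311032) encodes p15Ink4b, an inhibitor known for its induction by TGF-beta. Its start lies 16.4 kb from the upstream start of Cdkn2a. It measured 25.2, 21.7 and 30.3 CPM with the knockout, against 6.31, 6.22, 2.91 and 3.90 CPM in wild type. The genotypes did not overlap, and in wild type replicates 1 and 2 were again the higher pair. The rise was 5.31-fold (95% interval 3.38 to 8.33; log2 fold change 2.41, SE 0.29, adjusted p = 0.00191). The longest run of identical bases between the annotated transcripts of Cdkn2a and Cdkn2b was 23 bases, shorter than the 85-base reads, so whole reads of one do not match the other exactly.

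The fitted rise was larger for Cdkn2a (19.0-fold) than for Cdkn2b (5.31-fold). The log2 ratio of Cdkn2a to Cdkn2b counts was 2.82, 2.90 and 2.50 in Suz12 cKO and 1.29, 1.40, -1.50 and -0.44 in wild type. Each Suz12 cKO library lay above each wild type library, and wild type libraries differed among themselves in sign. The means were 2.74 ± 0.21 (SD, n = 3) and 0.19 ± 1.41 (SD, n = 4), a difference of 2.55 (exact permutation test, two-sided, p = 0.0571). That is the smallest p that 35 splits of 3 against 4 libraries allow, so the design cannot pass 0.05 here. Within the 3 libraries high in haemoglobin RNA the difference was 1.47.

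Around the locus, Mtap, the methylthioadenosine phosphorylase gene next to Cdkn2a, measured 47.8, 41.6 and 49.2 CPM with the knockout, against 42.3, 32.1, 32.8 and 29.9 CPM in wild type, and was not called (log2 fold change 0.43, SE 0.14, adjusted p = 0.0823). The interferon genes Ifne and Ifna1, farther out on that side, and Zfp352, beyond Cdkn2b, had no count in any library, which allows up to 0.00668 CPM over the 7 libraries together, for counting error only. Dmrta1 and Elavl2, also beyond Cdkn2b, had counts in 1 wild type library each (0.279 CPM in replicate 2 and 0.474 CPM in replicate 4). Of these 6 coding neighbours 5 were thus too low for a test, and Gm12610 was not analysed here.

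The other INK4 genes were not called. Cdkn2c (Entrez 12580; chromosome 4, 109660876 to 109666756), which encodes p18Ink4c, measured 4.18, 3.18 and 5.29 CPM with the knockout, against 5.28, 3.25, 5.21 and 5.03 CPM in wild type. The groups overlapped, with the lowest value of each genotype in a library high in haemoglobin RNA. Its log2 fold change was -0.15 (SE 0.31, 95% interval -0.86 to 0.55, adjusted p = 0.832). Cdkn2d (Entrez 12581; chromosome 9, 21288459 to 21291421), which encodes p19Ink4d, measured 7.97, 8.65 and 10.1 CPM with the knockout, against 15.5, 11.8, 10.4 and 13.7 CPM in wild type. The ranges just missed each other, with Suz12 cKO replicate 3 next to wild type replicate 3. Its log2 fold change was -0.53 (SE 0.20, 95% interval -0.97 to -0.08, adjusted p = 0.136). Thus the paralogs away from the Cdkn2a-Cdkn2b pair had intervals that reach at most 0.55 upward on the log2 scale.

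Cdkn1a (Entrez 12575; chromosome 17, 29090979 to 29100722) encodes p21, which p53 and other signals induce. It measured 979, 1124 and 709 CPM with the knockout, against 260, 767, 220 and 244 CPM in wild type. Wild type replicate 2 lay inside the Suz12 cKO range, and the other 3 wild type libraries lay close together well below it. With all libraries the log2 fold change was 1.33 (SE 0.42, 95% interval 0.37 to 2.29, adjusted p = 0.0846), which is not a call. In DESeq2 it was 1.34 (adjusted p = 0.145), also not a call. Without wild type replicate 2 it was 1.94 (edgeR adjusted p = 2.4e-04), and edgeR called the gene with no other library left out. With a term for haemoglobin RNA it was 1.04 (adjusted p = 0.00915), within the 4 libraries low in haemoglobin RNA 1.54 and within the 3 high ones 0.46. In both genotypes the libraries high in haemoglobin RNA had more Cdkn1a than the others of that genotype. Each of these subsets has 1 library in 1 genotype, so no test is given for them.

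Cdkn1b (Entrez 12576; chromosome 6, 134920401 to 134925525) encodes p27, a brake typical of resting cells. It measured 74.9, 81.2 and 49.4 CPM with the knockout, against 62.1, 81.1, 60.6 and 57.2 CPM in wild type. The ranges overlapped, and the library with the lowest level of all was Suz12 cKO replicate 3. The log2 fold change was 0.07 (SE 0.18, 95% interval -0.35 to 0.49, adjusted p = 0.878). It turned to -0.17 with a term for haemoglobin RNA (adjusted p = 0.325).

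Cdkn1c (Entrez 12577; chromosome 7, 143458339 to 143461059) encodes p57 and is an imprinted gene, expressed mainly from the maternal copy. It had 113, 80 and 145 counts in Suz12 cKO and 37, 22, 11 and 19 in wild type, or 1.78, 1.22 and 2.03 CPM against 0.461, 0.361, 0.187 and 0.392 CPM. The genotypes did not overlap at these low levels. The log2 fold change was 2.25 (SE 0.70, 95% interval 0.66 to 3.84), and the gene missed the threshold in edgeR (adjusted p = 0.0795) and passed it in DESeq2 (log2 fold change 2.27, adjusted p = 0.00883). No other setting called it. The adjusted p was 0.0636 in limma-voom and 0.0776 to 0.221 in edgeR with each library left out. Its imprinted neighbour Kcnq1ot1, an antisense RNA, averaged 8.53 ± 0.817 against 8.25 ± 2.34 CPM (SD, n = 3 and n = 4; adjusted p = 0.946). Slc22a18, Nap1l4 and Tssc4 moved by 0.13, 0.01 and 0.13 on the log2 scale (edgeR adjusted p = 0.690, 0.962 and 0.680) and Kcnq1, at no more than 0.903 CPM, 0.43 (adjusted p = 0.923). Phlda2 and Trpm5 were too low for a test.

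To compare levels between genes, CPM were divided by the deposited exon length in kilobases. Cdkn1a was the most abundant member in each library, at 463 ± 104 CPM per kb in Suz12 cKO (n = 3) and 184 ± 130 CPM per kb in wild type (SD, n = 4). In wild type Cdkn1b came next (27.1 ± 4.47), followed by Cdkn2d (10.1 ± 1.76), Cdkn2a (7.86 ± 7.14), Cdkn2c (4.24 ± 0.875) and Cdkn2b (3.47 ± 1.22). Neighbours in the order from Cdkn2d to Cdkn2b overlapped in range, so their order is not settled. In Suz12 cKO, Cdkn2a took the place after Cdkn1a, at 150 ± 6.52 CPM per kb, above Cdkn1b (28.5 ± 6.99) in 3 of 3 libraries. Cdkn1b and Cdkn2b (18.5 ± 3.08) overlapped, Cdkn2d (7.02 ± 0.869) and Cdkn2c (3.81 ± 0.953) followed without overlap, and Cdkn1c was last in both genotypes (0.863 ± 0.214 and 0.180 ± 0.0599).

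**Figure D3:**
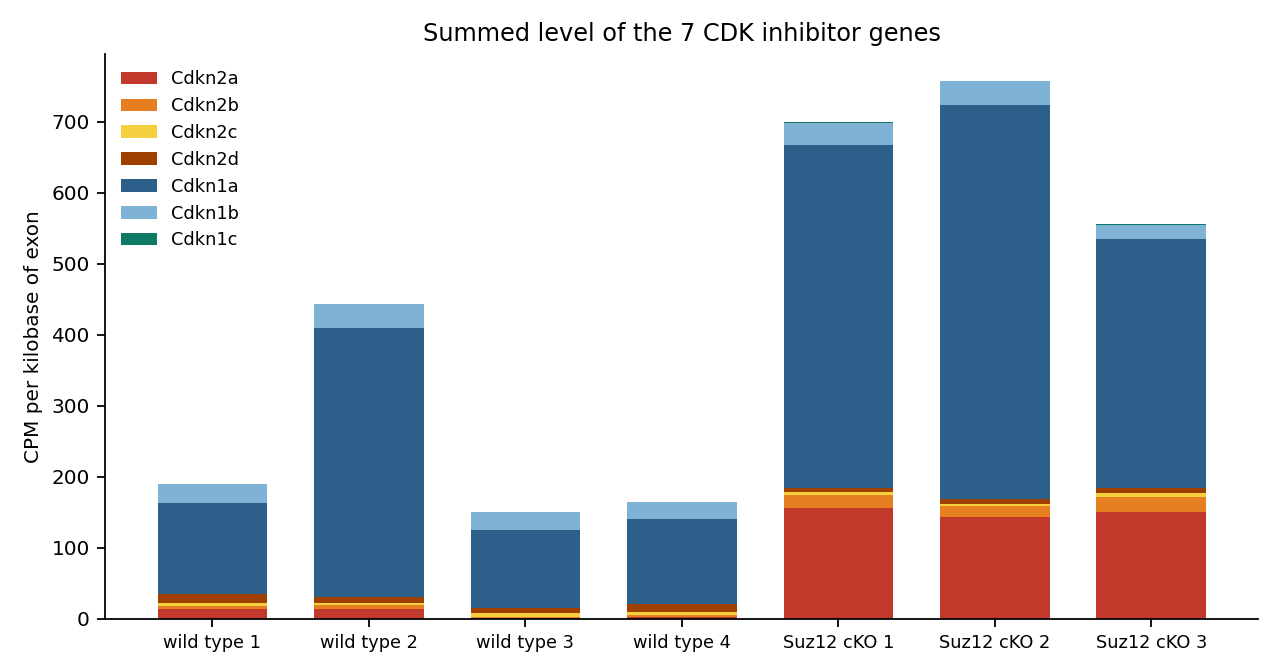
Summed level of the 7 CDK inhibitor genes per library, in CPM per kilobase of exon, stacked by gene. The sums run from 150 to 444 in wild type and from 556 to 757 in Suz12 cKO, and the Cdkn2a segment (red) is 143 to 156 in Suz12 cKO against at most 14.4 in wild type.

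Together the 7 genes summed to 700, 757 and 556 CPM per kb in Suz12 cKO and to 190, 444, 150 and 165 CPM per kb in wild type. The groups did not overlap, and wild type replicate 2, with its high Cdkn1a, stood apart from the other wild type libraries. Cdkn2a made up 22.8% ± 4.08 of the sum in Suz12 cKO and 3.14% ± 2.91 in wild type, and Cdkn1a 68.4% ± 5.20 and 74.6% ± 7.53 (SD, n = 3 and n = 4). The 4 INK4 genes held 26.3%, 22.2% and 33.2% in Suz12 cKO and 18.5%, 7.0%, 10.6% and 12.5% in wild type. Each Suz12 cKO share was above each wild type share, with a difference of 15.1 percentage points (exact permutation test, two-sided, p = 0.0571, the smallest that 35 splits allow). The mean share of Cdkn2b was 2.85% against 1.62% in wild type. Cdkn2c held 0.593% against 2.27% and Cdkn2d 1.08% against 5.13%. The test thus largely restates the rise of Cdkn2a and does not show a gain by the INK4 genes as a class.

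Genes called among the cyclins, the CDKs and their regulators went in both directions. Of 21 listed cyclin, CDK and CDK-activating or inhibiting genes, 20 were tested, 2 rose and 7 fell. Of all tested genes 6.28% were called higher and 4.02% lower, so the number higher here is near that share. The median log2 fold change of the list was -0.75. Ccnd2 and Ccnd1, which encode D-type cyclins, the partners of the kinases that INK4 proteins bind, were the 2 that rose. Ccnd2 measured 502, 507 and 429 CPM with the knockout, against 114, 173, 105 and 89.6 CPM in wild type (log2 fold change 1.99, SE 0.21, adjusted p = 0.00105). Every Suz12 cKO library was above every wild type library. Ccnd1 averaged 25.2 ± 11.1 against 8.34 ± 2.91 CPM (SD, n = 3 and n = 4; adjusted p = 0.0175). The other D-type cyclin gene, Ccnd3, and the kinases Cdk4 and Cdk6 had log2 fold changes that were not called (adjusted p = 0.491, 0.188 and 0.431). On the side of CDK2 and CDK1, the targets of p21 and p27, the cyclin gene Ccna2 averaged 9.40 ± 1.53 against 26.7 ± 1.48 CPM and Ccnb2 7.10 ± 1.38 against 25.7 ± 4.84 CPM. Cdk1, the mitotic kinase, fell by 2.14 on the log2 scale (5.11 ± 1.50 against 22.5 ± 2.76 CPM, adjusted p = 0.00133). The number of the list called higher was 1 without Suz12 cKO replicate 3 and 1 without wild type replicate 1, 3 or 4. Over all genes, 562, 651, 546 and 683 were then called higher, in that order, against 906 with all libraries. The number of the list called lower was 11 without wild type replicate 2. Over all genes that fit called 885 lower, against 580 with all libraries.

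Of 19 genes of the retinoblastoma and E2F families and their partners, all were tested, 0 rose and 5 fell by edgeR. At an unadjusted p under 0.05, 2 were higher, against 1906 of all tested genes. DESeq2 called 1 higher, against 1457 over all genes. The median log2 fold change was -0.36, and 6.28% of all tested genes were called higher and 4.02% lower. The 5 were Foxm1, a mitotic transcription factor gene (4.81 ± 0.698 against 16.6 ± 1.33 CPM), the activator E2f2 (33.6 ± 6.20 against 67.5 ± 5.71 CPM), the repressor E2f7, the pocket protein gene Rbl1, and Tfdp1, an E2F partner. The log2 fold changes of E2f7, Rbl1 and Tfdp1 were -2.25, -0.81 and -0.50. Rb1 itself averaged 107 ± 6.36 against 102 ± 6.10 CPM and was not called (adjusted p = 0.738). Of 20 genes of DNA synthesis that E2F factors are known to activate, 13 fell and 0 rose (median -0.97; 0 were higher at an unadjusted p under 0.05 or by DESeq2), and for 19 every Suz12 cKO library lay below every wild type library. Over all 14436 tested genes that held for 1655, and 4.02% were called lower. The helicase genes Mcm5 and Mcm6 averaged 10.8 ± 1.18 against 28.4 ± 3.02 CPM and 26.3 ± 2.46 against 53.9 ± 5.53 CPM, and the ribonucleotide reductase gene Rrm2 11.2 ± 3.25 against 30.9 ± 4.38 CPM (adjusted p = 0.00116, 0.00156 and 0.00378). The number that fell was 6 without Suz12 cKO replicate 2 and 7 without wild type replicate 1. It was 8 without Suz12 cKO replicate 1 or wild type replicate 3. Over all genes, 268, 299, 309 and 317 were then called lower, in that order, against 580 with all libraries.

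**Figure D4:**
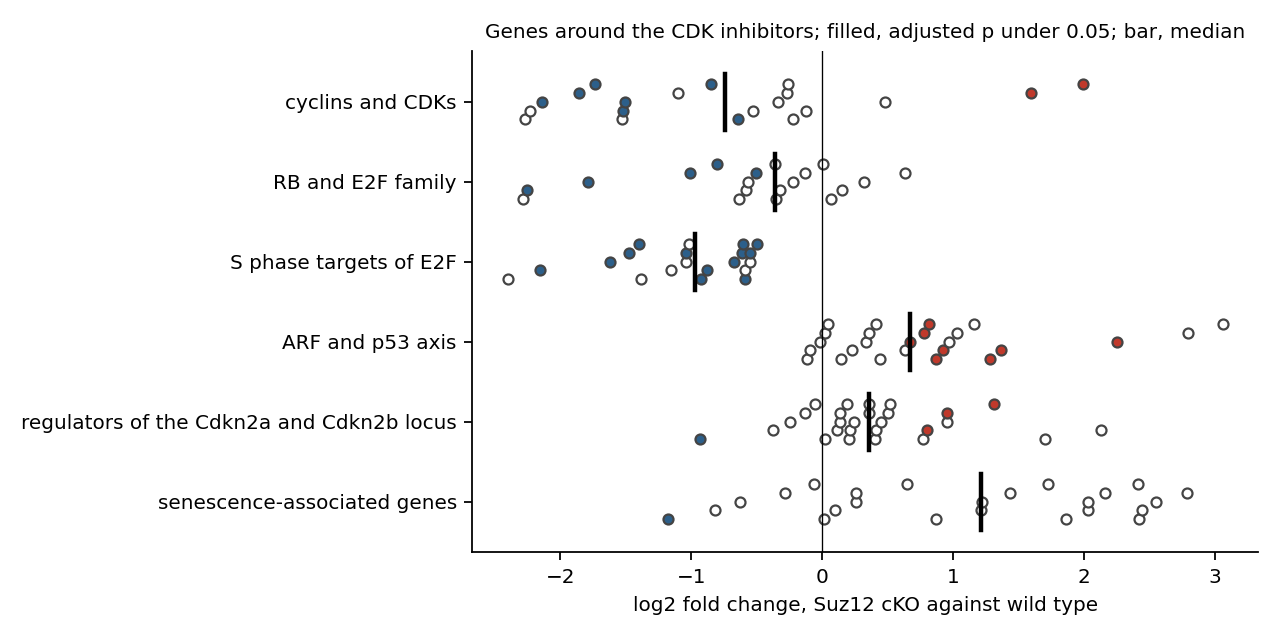
Log2 fold changes of the listed genes around the CDK inhibitors, one point per gene and one row per list, filled red (higher) or blue (lower) where the adjusted p was under 0.05, with a bar at each list median. The medians run from -0.97 for DNA synthesis genes to 0.67 for the p53 axis and 1.22 for senescence-associated genes, of which 1 of 24 was called.

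Of 25 genes of the ARF and p53 axis, 8 rose and 0 fell by edgeR, with a median log2 fold change of 0.67. At an unadjusted p under 0.05, 0 were lower, against 1625 of all tested genes. DESeq2 called 0 lower, against 863 over all genes. Among all tested genes 6.28% were called higher and 4.02% lower. The p53 targets Zmat3, Aen and Tnfrsf10b averaged 92.5 ± 8.58 against 38.1 ± 2.68 CPM, 41.0 ± 2.92 against 23.3 ± 2.74 CPM and 6.06 ± 0.523 against 1.28 ± 0.410 CPM (SD, n = 3 and n = 4; adjusted p = 4.5e-04, 0.00451 and 0.00635). Trp53, the p53 gene, and Mdm2, its antagonist that ARF binds, were not called (46.4 ± 4.57 against 47.0 ± 2.49 CPM and 117 ± 22.9 against 75.1 ± 22.3 CPM, adjusted p = 0.946 and 0.104). The number that rose was 4 without Suz12 cKO replicate 3 and 5 without either Suz12 cKO replicate 2 or wild type replicate 3. It was 13 with wild type replicate 2 left out. Over all genes, 562, 447, 546 and 1515 were then called higher, in that order, against 906 with all libraries.

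Of 28 genes known to act on the Cdkn2a-Cdkn2b locus, 27 were tested, 3 rose and 1 fell (median 0.35), against 6.28% higher and 4.02% lower of all tested genes. The number called lower by edgeR, 1 of 27, is near that share. At an unadjusted p under 0.05, 6 were higher and 1 lower, against 1906 and 1625 of the 14436 tested genes. DESeq2 called 5 higher and 1 lower, against 1457 and 863 over all genes. The 3 were Bmi1 and Cbx7, which encode polycomb proteins that repress the locus, and the forkhead factor gene Foxo3. Bmi1 measured 98.6, 98.8 and 120 CPM with the knockout, against 56.8, 55.3, 53.2 and 53.8 CPM in wild type (log2 fold change 0.95, SE 0.10, adjusted p = 9.8e-04). Cbx7 averaged 18.3 ± 2.06 against 7.37 ± 1.74 CPM and Foxo3 42.4 ± 4.17 against 24.4 ± 2.15 CPM (SD, n = 3 and n = 4; adjusted p = 0.00635 and 0.00410). Myc, which encodes a repressor of Cdkn2b and Cdkn1a in many cells, was the gene that fell (18.5 ± 2.43 against 35.4 ± 9.17 CPM, adjusted p = 0.0250). That call was lost without Suz12 cKO replicate 1, 2 or 3 and without wild type replicate 3 or 4, which left 0 called lower. In these fits 268 to 480 of all genes were called lower, against 580 with all libraries. The number of the list called higher was 8 without wild type replicate 2. Over all genes that fit called 1515 higher, against 906 with all libraries. The PRC2 genes Ezh2 and Eed were not called (adjusted p = 0.346 and 0.840).

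Of 26 genes linked with cell senescence, 24 were tested, 0 rose and 1 fell by edgeR, although the median log2 fold change was 1.22. At an unadjusted p under 0.05, 5 were higher, against 1906 of all tested genes. DESeq2 called 2 higher, against 1457 over all genes. Among all tested genes 6.28% were called higher and 4.02% lower, so the number lower here is near that share. Hmgb2, a chromatin protein gene that also follows proliferation, averaged 8.85 ± 0.988 against 20.0 ± 2.95 CPM (SD, n = 3 and n = 4; adjusted p = 0.00424). The nuclear lamina gene Lmnb1 averaged 29.5 ± 10.1 against 45.6 ± 21.0 CPM and was not called (adjusted p = 0.319). The secreted factor gene Il6 spread widely, averaging 44.1 ± 38.5 against 8.23 ± 15.7 CPM (SD, n = 3 and n = 4; edgeR adjusted p = 0.455). The number called higher was 12 without wild type replicate 2 and 5 with a term for haemoglobin RNA. Over all genes, 1515 and 1001 were called higher in these fits, against 906 with genotype alone and all libraries.

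By Pearson's r of log2 CPM over the 7 libraries, among 8518 tested genes with a mean of at least 10 CPM, the genes most like Cdkn2a were Cdc42bpa (r = 0.997), Adgrl3 (r = 0.993) and Col4a2 (r = 0.992), and among the least like were Pank2 (r = -0.986) and Pnp (r = -0.981). For Cdkn2b they were Ptgs1 (r = 0.995), Tpcn2 (r = 0.995) and Ptprs (r = 0.994), and at the other end Emilin1 (r = -0.993), Sirpb1b (r = -0.990) and Cep192 (r = -0.990). These values are a description of 7 libraries that share a genotype split. Because the genes were picked by this likeness, a pattern within wild type that follows that of Cdkn2a or Cdkn2b is part of how they were chosen. Cdc42bpa, which encodes a kinase of the cytoskeleton, stood in wild type replicates 1 to 4 at 10.7%, 12.2%, 1.10% and 3.57% of its Suz12 cKO mean.

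**Figure D5:**
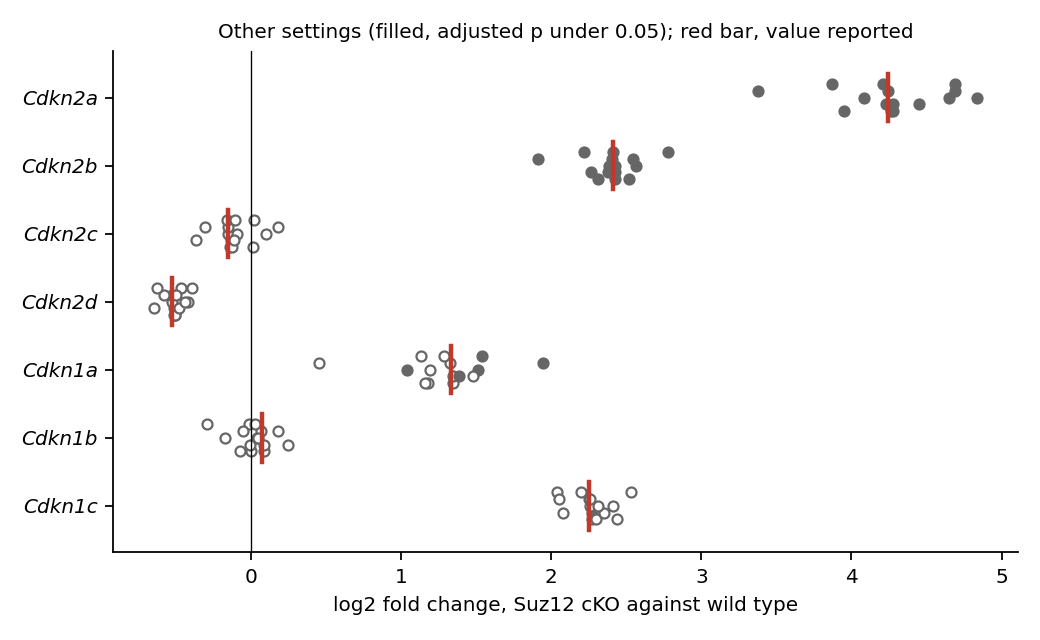
Log2 fold change of each gene under every other setting tried (points, filled where the adjusted p was under 0.05) beside the value reported (red bar). The points of Cdkn2a (3.38 to 4.84) and Cdkn2b (1.91 to 2.78) are filled, 2 of them for each gene from fits with 1 library in 1 genotype, Cdkn1a is filled under some settings, and Cdkn2c and Cdkn1b lie on both sides of 0.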

How the data were processed

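RNA of flow-sorted alveolar macrophages was sequenced from TruSeq mRNA libraries (85-base single-end reads), per the labels' protocols and series text. The deposited table holds raw whole-number counts; the authors' tool was featureCounts and their build mm10, per the submitters' processing notes. The sources used here do not give the aligner, annotation, strand setting or handling of multiply matching reads. Symbols came from RefSeq (GRCm38.p6) by Entrez number (25275 of 27179 genes matched). Genes were filtered with filterByExpr (minimum count 10, minimum total 15), scaled with TMM and tested with edgeR 4.0.16 (quasi-likelihood, genotype alone, Benjamini-Hochberg over 14436 genes, R 4.3.3); the script was tested on simulated data. SE is the log2 fold change over the square root of F. Floors cover counting error only. The genes named were the 7 members, Suz12, coding neighbours, the called genes of each list (where over 6 were called, the 3 each way with the smallest p) and the 3 genes most and least like Cdkn2a and Cdkn2b. A few more were named after their values were seen: Ccnd3, Cdk4, Cdk6, Rb1, Trp53, Mdm2, Ezh2, Eed, Lmnb1, Il6 and Kcnq1ot1. Some genes that this rule names are not reported here. The members and lists were chosen with earlier results of these data known. Alternatives were DESeq2 1.42.0, its size factors, limma-voom (3.58.1), no filter, each library left out, a replicate block, and fits by haemoglobin RNA (over 20 CPM).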

Additional observations from a re-analysis of the deposited data

Results flagged for a closer look

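Values that stood apart were looked for within the 4 wild type libraries, where the gap of the highest or lowest library to the next, over the whole range, was set against Dixon's 95% critical value. Chance gives about 1 in 20 groups, and 5 of 38 values stood apart. These values are not independent, so the rates cannot be compared directly. Cdkn1a, for example, made up 85.4% of the sum of the 7 genes in wild type replicate 2. In wild type replicate 2 Cdkn1a was at 767 CPM against 220 to 260 CPM in the others, Cdkn2c at 3.25 CPM against 5.03 to 5.28 CPM, the sum of the 7 genes at 444 against 150 to 190 CPM per kb, and Ccnd1 at 12.7 against 6.27 to 7.29 CPM. In wild type replicate 1 Rrm2 was at 37.4 CPM against 28.3 to 29.7 CPM. Wild type replicate 2 is the wild type library high in haemoglobin RNA (56.6 CPM); the part of that RNA in these values was not tested.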

How the results depend on the processing

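Cdkn2a and Cdkn2b kept their call with each library left out, with the replicate block, with a term for haemoglobin RNA, without a filter and by the other tools. The fits within libraries high or low in haemoglobin RNA have 1 library in 1 genotype and are given as values only. Leaving out each library in turn gave log2 fold changes of 3.87 to 4.69 for Cdkn2a and 2.22 to 2.56 for Cdkn2b, 1.13 to 1.94 for Cdkn1a (called only without wild type replicate 2), -0.37 to 0.012 for Cdkn2c and -0.071 to 0.24 for Cdkn1b. DESeq2 called Cdkn1c (2.27) but not Cdkn1a (1.34, adjusted p = 0.145). Limma-voom called Cdkn1a (1.51) but not Cdkn1c (2.26, adjusted p = 0.0636). With a term for haemoglobin RNA the values were 1.04 for Cdkn1a (called), 0.10 for Cdkn2c and -0.17 for Cdkn1b. They were 0.18 for Cdkn2c and -0.053 for Cdkn1b within the libraries high in that RNA, and 0.018, -0.29 and, for Cdkn1a, 1.54 within the low ones. The cause of these shifts was not tested. The replicate block is given here only, because pairing by number is not settled. Suz12 cKO replicates 2 and 3 were closest to the wild type library of the same number (correlations of deviations 0.24 and 0.16). Suz12 cKO replicate 1 was not (-0.04) and was closest to wild type replicate 2 (0.11). With the replicate block Cdkn1a was at 1.39 (called) and Cdkn1b at -0.0070, 585 genes were higher and 278 lower in all, 1 cyclin or CDK gene was higher, 0 locus regulators were lower and 2 senescence genes were higher.

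Over all genes 906 were called higher and 580 lower; leaving out a library gave 447 to 1515 and 268 to 885, DESeq2 1457 higher, and 328 and 367 were lower within the libraries high and low in haemoglobin RNA. DESeq2 also called 11 cyclin or CDK genes lower, 1 retinoblastoma or E2F gene higher, 5 locus regulators higher and 2 senescence genes higher. With the haemoglobin term 5 senescence genes were higher and 2 lower, with 1001 higher and 599 lower over all genes. Leaving out a library gave 1 to 2 cyclin or CDK genes higher and 5 to 11 lower, 0 to 1 retinoblastoma or E2F genes higher, 6 to 14 DNA synthesis genes lower, 4 to 13 p53 axis genes higher, 3 to 8 locus regulators higher and 0 to 1 lower, and 0 to 12 senescence genes higher. Cdkn1c had 11 to 145 counts per library, the lowest of the 7 members.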
